A study of Mus musculus with 10 samples.

Results

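The 10 genes described here, Tubb3, Nefl, Nefm, Stmn2, Rbfox3, Map2, Snap25, Syt1, Elavl3 and Dcx, are transcribed in most kinds of neuron and are used to recognise them. They were followed in cultures of OPCs, short for oligodendrocyte precursor cells, from which myelin-forming oligodendrocytes arise. They were chosen by symbol, with their mean level and their change between genotypes already known, and all 10 were found among the 19333 genes of the authors' deposited table. That table compares 3 cultures from Olig2-Cre:Apc-fl/fl mice with 3 cultures from Apc-fl/fl littermates, which carry the same floxed Apc alleles without Cre and are called wild type here. Olig2-Cre removes the floxed part of Apc from cells that express, or descend from cells that expressed, Olig2, so a neuron outside that lineage would keep the gene. In both groups OPCs were isolated by immunopanning, in which antibody-coated dishes retain the wanted cells, and grown for 3 days with PDGFAA, the ligand of the receptor encoded by Pdgfra. The series also holds 4 libraries of cells sorted from spinal cord on day 18 of experimental autoimmune encephalomyelitis (EAE) in Pdgfra-CreER:Apc-fl/fl mice, 1 of them labelled Th1 and 3 labelled cytotoxic macrophage.

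Neurons are built around long processes that are held up by microtubules and neurofilaments, and they release transmitter by fusing vesicles with the membrane at synapses. Immunopanning is meant to separate OPCs from neurons and other glia, and young OPCs transcribe some genes that are also used in neurons, Map2 and Dcx among them. Bulk RNA mixes all cells of a culture, so fewer neurons and less RNA per neuron cannot be told apart.

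The authors' deposited table gives for each gene 1 mean of normalized counts over both genotypes, 1 log2 fold change with its standard error (SE) and p-values, with no value per library. Depth and level of each OPC library are therefore unknown, and no source used here says that the cultures came from separate animals. Raw files of most OPC libraries were replaced later, per the design text, so which reads lie behind the levels below is not known. The table does not name the numerator of its fold changes. Its sign was therefore turned so that Axin2, Lef1, Sp5 and Notum, genes induced by Wnt signalling, which Apc restrains, are higher in Apc-deleted cultures, and every log2 fold change below is Apc-deleted over wild type under that choice. The log2 fold change of Apc itself was -0.14 (SE 0.13, adjusted p = 1) in the authors' deposited table, a value for the whole gene that does not isolate the floxed part. Among all genes in the authors' deposited table, a share of 0.548% passed an adjusted p of 0.05, 0.393% as higher and 0.155% as lower in Apc-deleted cultures, and 3.63% had an unadjusted p under 0.05.

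Promoter letters are shown for the members with the highest and the lowest level, Tubb3 and Dcx, and for Elavl3 and Map2, which differ from each other in the words marked. Each line holds the 100 bases before the transcription start in RefSeq on GRCm38.p6, read 5′ to 3′ on the gene's strand. The table of RefSeq promoters used here matched 6 of the 10 members. Capitals mark TATAA, a core element that positions transcription, and GGGCGG, a GC box, each on either strand, and TATAA on both strands overlaps itself as TTATAA.
Tubb3 (chr8:123411453-123411552, plus strand): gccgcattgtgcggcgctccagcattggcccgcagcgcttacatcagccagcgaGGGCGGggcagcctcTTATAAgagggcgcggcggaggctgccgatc
Elavl3 (chr9:22052024-22052123, minus strand): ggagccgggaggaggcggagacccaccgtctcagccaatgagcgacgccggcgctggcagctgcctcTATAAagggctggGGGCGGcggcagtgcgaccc
Map2 (chr1:66175229-66175328, plus strand): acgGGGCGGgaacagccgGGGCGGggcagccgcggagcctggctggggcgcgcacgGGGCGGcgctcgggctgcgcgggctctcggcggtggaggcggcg
Dcx (chrX:143933220-143933319, minus strand): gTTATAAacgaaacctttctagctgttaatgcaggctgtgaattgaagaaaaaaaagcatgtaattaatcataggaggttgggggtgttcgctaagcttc
In Tubb3 and Elavl3 the word TATAA began 30 and 33 bases before the start. In Dcx it began 98 bases before the start, and a second Dcx entry had none. Map2, Rbfox3 and both entries of Syt1 had no TATAA in these 100 bases, so that 3 of the 6 matched genes held it. Map2 held GGGCGG 3 times, and 4 of the 6, Tubb3, Map2, Elavl3 and Syt1, held it at least once. Of all 32851 promoter entries, 10.2% held TATAA and 24.7% held GGGCGG within the same 100 bases. The GC content of the printed stretches was 69% in Tubb3, 72% in Elavl3, 85% in Map2 and 38% in Dcx. These matches describe letters only.

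The most abundant members belong to the neuronal cytoskeleton. Tubb3, the neuronal beta-tubulin (chromosome 8, 123411424 to 123422015), had a mean of 122255 normalized counts in the authors' deposited table, rank 5 of 19333 genes. Per kb of annotated exon its mean normalized count was 65447, rank 3. Nefl and Nefm, the light and medium neurofilament subunits, had means of 61468 and 50275 normalized counts in the authors' deposited table, and per kb 18186 and 8695. They lie side by side on chromosome 14 (68083863 to 68089095 and 68082590 to 68124846), and 32.8% of the exon bases of Nefl also belong to Nefm on the opposite strand. No source used here says whether reads were counted by strand, so the split between these neighbours is uncertain. Stmn2, a microtubule regulator of growing axons (chromosome 3, 8509360 to 8561606), had a mean of 31420 normalized counts in the authors' deposited table and 5609 per kb.

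Map2, which stabilises dendritic microtubules (chromosome 1, 66175273 to 66442583), had a mean of 29837 normalized counts in the authors' deposited table and 1814 per kb. The length used there joins the exons of 24 annotated transcripts to 16449 bases, against 6258 in the longest of them. Dcx, the microtubule protein of migrating young neurons (chromosome X, 143855842 to 143933311), was the lowest member at a mean of 3947 normalized counts in the authors' deposited table and 312 per kb. The cytoskeletal genes thus held both ends of the range per kb among the 10.

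The synaptic genes lay between these ends. Syt1, the calcium sensor of transmitter release (chromosome 10, 108497650 to 109010982), had a mean of 25096 normalized counts in the authors' deposited table and 3010 per kb. Snap25, a membrane SNARE protein that drives vesicle fusion (chromosome 2, 136713453 to 136782428), had a mean of 8117 normalized counts in the authors' deposited table and 1195 per kb. The nuclear RNA-binding protein Rbfox3, known to histologists as NeuN (chromosome 11, 118489762 to 118911597), and the neuronal HuC protein Elavl3 (chromosome 9, 22015005 to 22052023) were close to each other. Their means were 13068 and 13072 normalized counts in the authors' deposited table, and 2246 and 1897 per kb.

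**Figure D1:**
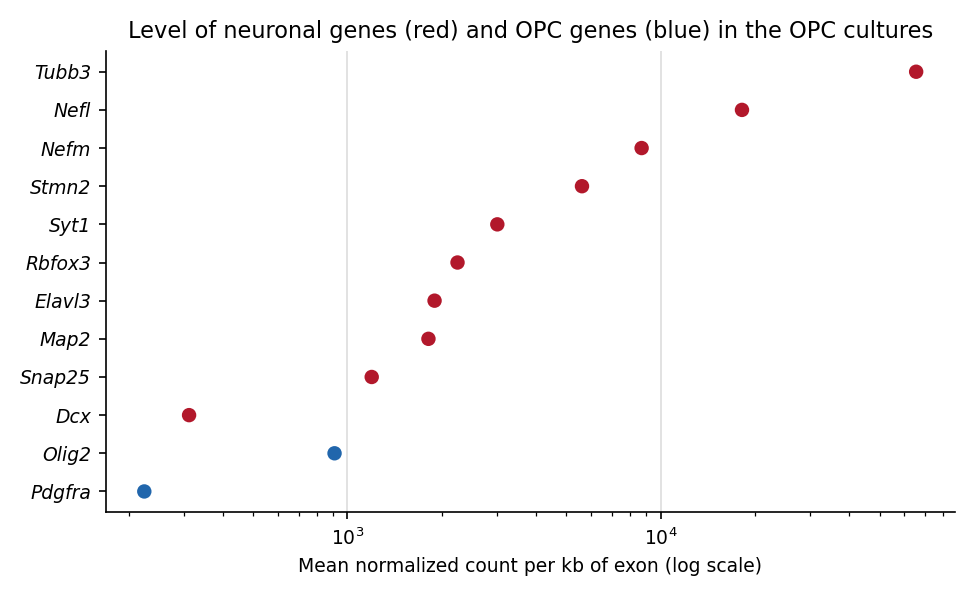
Mean normalized count per kb of exon (log axis) of the 10 neuronal genes in red and of Olig2 and Pdgfra in blue, each point 1 gene from the authors' deposited table, with no spread between libraries available. Tubb3 stands at 65447 and Dcx at 312, beside 909 for Olig2 and 225 for Pdgfra.

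All 10 genes stood above Pdgfra, the receptor by which OPCs sense PDGFAA, in mean normalized count per kb, and 9 of 10, all but Dcx, stood above Olig2, a transcription factor of the oligodendrocyte lineage. Tubb3 was 291 times Pdgfra and 72.0 times Olig2 on that scale, Syt1 13.4 and 3.31 times, Elavl3 8.45 and 2.09 times, and Dcx 1.39 and 0.343 times. The median member was 11.7 times Pdgfra and 2.89 times Olig2 per kb. With the longest transcript as the length, the median member was 5.48 times Olig2, and with no length 11.9 times. For comparison, 3409 of the 19296 genes with an annotated length exceeded Pdgfra per kb and 871 exceeded Olig2. These levels are what the choice of genes used, so they stand as a description.

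OPC transcripts were listed beside the neuronal ones. All 16 genes of the OPC list had a mean of at least 100 normalized counts in the authors' deposited table, led per kb by Olig1 at 5247, Matn4 at 935 and Ptprz1 at 916. The summed mean normalized count per kb was 108411 over the 10 neuronal genes, 65447 of it from Tubb3 alone, against 11833 over the 16 OPC genes. Median levels per kb were 2628 for the neuronal genes and 253 for the OPC genes. Astrocyte genes, with S100b at 15449, Aldoc at 2376 and Slc1a2 at 2037 per kb, had a median of 619. Oligodendrocyte genes, led by Mag at 1974 and Bcas1 at 1610 per kb, had a median of 413. Microglia and macrophage genes, led by C1qa at 1656, Lyz2 at 625 and Cx3cr1 at 369 per kb, had a median of 83.2. Medians were lower still for the endothelial list at 42.6, with Cldn5 at 822, and for the pericyte and fibroblast list at 30.0, with Rgs5 at 211 per kb.

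**Figure D2:**
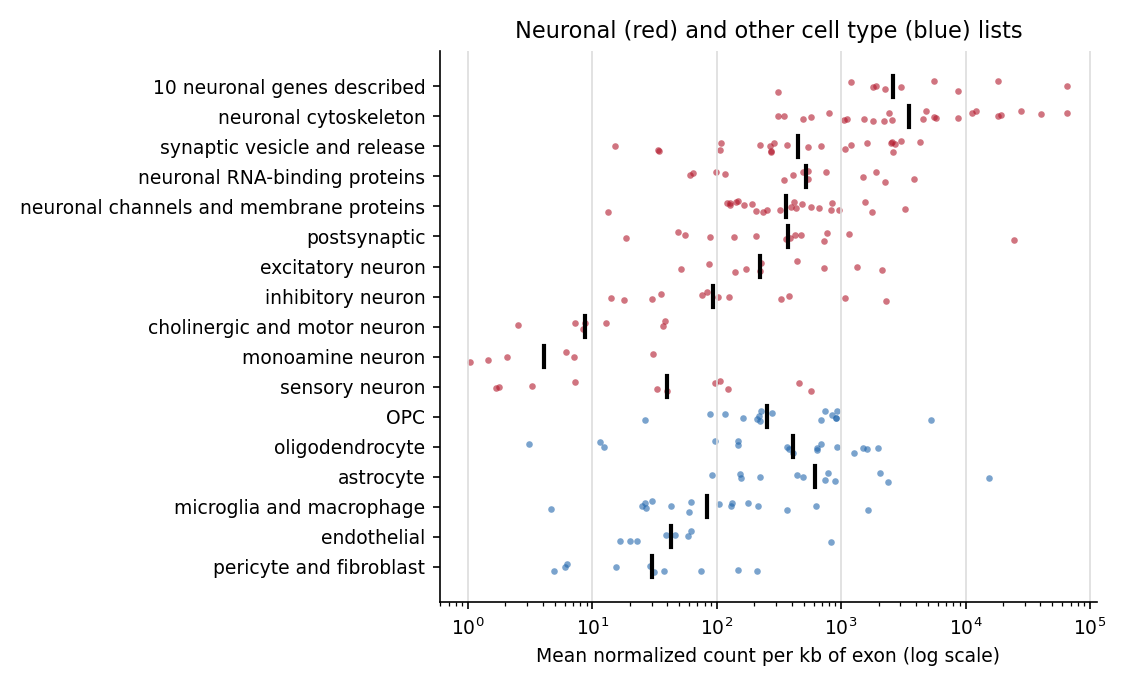
Mean normalized count per kb of exon (log axis) of each gene in 11 neuronal lists (red, the 10 genes described on top) and 6 lists of other cell types (blue), computed from the authors' deposited table, with a black bar at each list's median. The cytoskeletal list has a median of 3534, against 253 for the OPC list, 619 for the astrocyte list and 4.11 for the monoamine list.

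Further neuronal genes were listed at a range of levels. The 5 lists of neuronal structure and function hold 98 genes, all measured, of which 88 are not among the 10 described. Of these 88, 74 had a mean of at least 1000 normalized counts in the authors' deposited table, a level that 3535 of all 19333 genes reached. Per kb, 63 of the 88 stood above Pdgfra and 29 above Olig2. Gap43, a growth cone protein, was at 40387 per kb and Stmn3 at 27869, while Dclk1 at 492 and Crmp1 at 350 were, with Dcx, the lowest of 24 cytoskeletal genes. Among 22 genes of vesicle release, Vamp2 at 4317 and Cplx1 at 2734 per kb stood high with Syt1, and Rims1 at 34.6, Bsn at 33.9 and Rab3a at 15.1 stood low. Among 14 RNA-binding proteins, Celf4 led at 3883 per kb before Rbfox3 and Elavl3, and Celf3, Khdrbs2 and Srrm4 closed at 97.8, 64.4 and 60.7.

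Membrane and receptor genes of neurons were also listed. Of 24 channels and adhesion proteins, Ncam1 and Chl1 led at 3278 and 1770 per kb, and Scn8a, Cacna1b and Scn9a closed at 128, 121 and 13.3. Ncam1 is an adhesion gene that glia also use. Of 14 postsynaptic genes, Nrgn, a calmodulin-binding protein of forebrain neurons, stood at 24343 per kb, Camk2a at 1158 and Gria1 at 763, against 55.7 for Shank2, 48.8 for Grin2a and 18.6 for Shank3.

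Genes that separate kinds of neuron had very different levels. Markers of excitatory neurons were led by the vesicular glutamate transporter Slc17a7 at 2134 per kb and the cortical transcription factors Neurod6 at 1332 and Neurod2 at 722, with Tbr1 at 140, Fezf2 at 86.2 and Slc17a8 at 51.9 at the low end. Inhibitory markers were led by the neuropeptide genes Npy at 2274 and Sst at 1083 and the GABA transporter Slc32a1 at 378, with Dlx6os1 at 30.1, Dlx5 at 17.8 and Vip at 14.0 at the low end. None of 7 cholinergic and motor neuron genes reached Pdgfra per kb, the highest being Slc5a7 at 38.6, Slc18a3 at 36.8 and Mnx1 at 13.0, and the lowest Chat at 8.34, Isl1 at 7.19 and Lhx3 at 2.51. The 6 measured monoamine genes ranged from 30.9 for Ddc, 7.10 for Slc18a2 and 6.16 for Th to 2.06 for Dbh, 1.44 for Tph2 and 1.04 for Slc6a4 per kb.

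Peripheral and retinal neuron genes were mixed. In the sensory list Prph, an intermediate filament, stood at 574, Ntrk2 at 458 and Pou4f1 at 124 per kb, whereas Avil and the nociceptor sodium channel gene Scn10a stood at 3.27 and 1.68. In the retinal ganglion cell list Sncg was at 691 and Slc17a6 at 440 per kb, against 4.87 for Pou4f3, 4.43 for Rbpms and 2.16 for Pou4f2. The genes listed for whole classes are few, and several are shared between lists. The levels therefore show which transcripts the authors' deposited table holds for the cultures, and not how many cells of a kind.

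Among their listed relatives Tubb3, Nefl, Rbfox3 and Elavl3 had the highest level per kb. Stmn2 at 5609 stood below Stmn3 at 27869 and Stmn4 at 12225, and Dcx at 312 below its relative Dclk1 at 492. With no length Stmn2, at a mean of 31420 normalized counts, stood above Stmn4 at 23423. Map2 at 1814 stood below the microtubule protein genes Mapt at 5820, Map1b at 4519 and Map1a at 2548, and above Map6 at 801. The length behind these values was 16449 exon bases for Map2, whose longest transcript has 6258, and 12166 for Map1a, whose longest has 11825. Such orders among relatives therefore depend on the length used. Of 7 measured beta-tubulins Tubb3 was the highest per kb, against 13710 for Tubb5, the isotype found in most cells, and 3886 for Tubb2a. Shared stretches of 50 bases were sought in the longest annotated transcript of a gene only. None in Tubb3 recurs in another annotated gene, while 49.6% of those in Tubb2a and 39.3% of those in Tubb2b do. The levels of Tubb2a and Tubb2b therefore depend on how shared reads were counted. Nefh, the heavy neurofilament, stood at 2411 per kb, below Nefl and Nefm, and Ina at 1527. Elavl2 and Elavl4 stood at 756 and 495 per kb, below Elavl3, and Rbfox1 and Rbfox2 at 1508 and 540, below Rbfox3. Genes transcribed in most cells differed widely in level. Over 12 of them the median mean was 1892 normalized counts in the authors' deposited table. Hsp90ab1 at 156990 and Actb at 141296 were the highest, both above Tubb3. The lowest were Gapdh, an enzyme of glycolysis, at 29.7 normalized counts and Pgk1 at 21.2. Of the 50-base stretches in the longest transcripts of Gapdh and Pgk1, 27.8% and 68.0% recur in other annotated genes. For Gapdh that transcript, of 3289 bases, is 1 of 13, and the share in the others was not tested. The part of shared sequence in these levels was not tested either. Except for Nefl and Nefm, at 31.8% and 29.3%, the members shared at most 4.39% of such stretches, the highest being Elavl3.

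No member passed an adjusted p of 0.05 between genotypes in the authors' deposited table, against 0.548% of all genes. Each member had an adjusted p of 1, and 1 of 10 had an unadjusted p under 0.05, against 3.63% of all genes. Of the 10 members Dcx had the largest difference, at -0.20 on the log2 scale (SE 0.095, unadjusted p = 0.0358) in the authors' deposited table. Its mean and fold in the authors' deposited table imply 3675 normalized counts in Apc-deleted and 4219 in wild-type cultures, if the fold is the ratio of the group means. Stmn2 followed at -0.17 (SE 0.12), with 29518 and 33322 implied normalized counts, and Rbfox3 at -0.15 (SE 0.13), with 12378 and 13758, in Apc-deleted and wild-type cultures of the authors' deposited table. The remaining cytoskeletal genes had log2 fold changes of -0.13 (SE 0.13) for Nefm, -0.08 (SE 0.14) for Nefl, -0.06 (SE 0.088) for Map2 and -0.01 (SE 0.17) for Tubb3 in the authors' deposited table. Elavl3 stood at -0.08 (SE 0.11), Snap25 at -0.04 (SE 0.18) and Syt1 at -0.04 (SE 0.16) in the authors' deposited table.

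The intervals show how large a difference the table leaves room for. For Tubb3 the 95% interval of the log2 fold change, taken as normal around the value in the authors' deposited table, ran from -0.35 to 0.32, which is a change between -21.6% and 25.0% in Apc-deleted cultures. For Map2, the most precise member, it ran from -14.6% to 8.46%, and for Snap25, the least precise, from -24.0% to 24.2%. Over the 10 members the lowest bound was -25.2%, for Stmn2, and the highest 25.0%, for Tubb3. A p that misses the threshold does not show that the levels were equal.

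**Figure D3:**
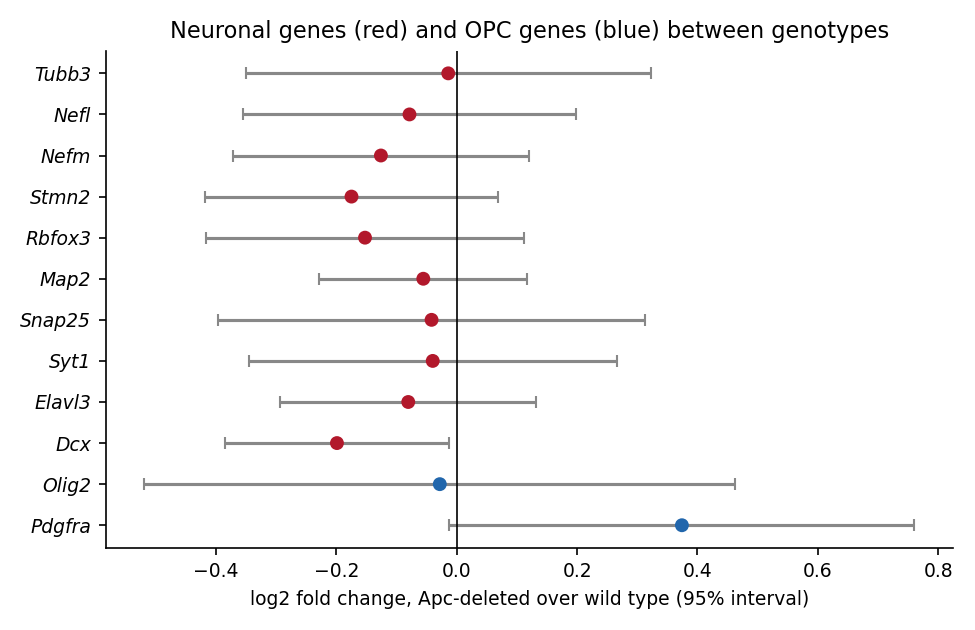
log2 fold change of the 10 neuronal genes (red) and of Olig2 and Pdgfra (blue) between genotypes, as Apc-deleted over wild type, with 95% intervals from the SE in the authors' deposited table. Each neuronal point lies between -0.20 and -0.01, and the interval of Dcx alone ends below 0.

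All 10 point values were below 0, with a median of -0.08 on the log2 scale in the authors' deposited table, and after subtracting the median of genes in the same level range 9 were below 0, with Tubb3 at 0.02. Across all genes in the authors' deposited table, 49.7% of point values were below 0 with a median of 0.00144, and over the 810 genes with means in the range of the members 60.6% were, with a median of -0.03. All genes are measured in the same 6 libraries, so their directions are not independent of each other. Pdgfra stood at 0.37 (SE 0.20) and Olig2 at -0.03 (SE 0.25) in the authors' deposited table. Neither of them passed.

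In the authors' deposited table none of 98 genes in the 5 lists passed in either direction, against 0.548% of all genes. Of these 98, 2 had an unadjusted p under 0.05, against 3.63% of all genes, and 92 pointed lower with a median log2 fold change of -0.10. The unadjusted 2 were Dcx and the vesicle gene Syn2, at -0.20 (SE 0.10) in the authors' deposited table. Without the members, none of 88 passed, 1 had an unadjusted p under 0.05 and 82 pointed lower, with a median of -0.10. By list, 23 of 24 cytoskeletal, 21 of 22 vesicle, 11 of 14 RNA-binding, 23 of 24 channel and membrane and 14 of 14 postsynaptic genes did so in the authors' deposited table. Their medians were -0.09, -0.10, -0.09, -0.10 and -0.13. Endothelial genes, which belong to no neuron, pointed lower for 8 of 8 with a median of -0.11, astrocyte genes for 10 of 12 with -0.07, and oligodendrocyte genes for 15 of 17 with -0.17 in the authors' deposited table. OPC genes pointed lower for 9 of 16 with a median of -0.05, and 5 of 10 did so in each of the pericyte and fibroblast, the Schwann and neural crest, and the neural stem and radial glia lists, with medians of -0.03, 0.0076 and 0.0049. Genes transcribed in most cells pointed lower for 3 of 12 and higher for 9, with a median of 0.11 in the authors' deposited table. Microglia and macrophage genes pointed lower for 3 of 16, with a median of 0.22 in the authors' deposited table. The part of these other cell types in the values of the neuronal genes was not tested.

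In the authors' deposited table no marker of a neuron class passed in either direction, against 0.548% of all genes. An unadjusted p under 0.05 was seen for 2, Npy and the retinal factor gene Atoh7, at 1.42 (SE 0.55), against 3.63% of all genes. The lower point values were 10 of 10 for excitatory, 9 of 12 for inhibitory, 6 of 7 for cholinergic and motor, 3 of 6 for monoamine, 10 of 11 for sensory and 5 of 12 for retinal ganglion cell genes. The medians were -0.12, -0.10, -0.18, 0.03, -0.14 and 0.04. Npy, the most abundant inhibitory marker per kb, was at 0.34 (SE 0.16, unadjusted p = 0.0348, adjusted p = 1) in the authors' deposited table, where Vip at 0.29 (SE 0.30) and Gad1, a GABA-synthesising enzyme, at 0.23 (SE 0.14) also had values above 0. Slc17a7 and Sst, the leading glutamatergic and a leading GABAergic gene, were at -0.14 (SE 0.15) and -0.12 (SE 0.13) in the authors' deposited table.

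Of 19 measured transcription factors of neuron formation 11 pointed higher with a median log2 fold change of 0.07, and 1, Neurog2, passed in the authors' deposited table. Neurog2, a proneural factor of dividing cortical progenitors, rose by 2.35 on the log2 scale (SE 0.48, adjusted p = 0.000444) in the authors' deposited table. Its mean was low, at 39.1 normalized counts in the authors' deposited table, and with the fold implies 65.3 in Apc-deleted and 12.8 in wild-type cultures. Sox11, a factor of young neurons and progenitors with 1251 per kb, stood at 0.36 (SE 0.13) and Insm1, a factor of newly born neurons, at 1.19 (SE 0.44) in the authors' deposited table, both with an adjusted p of 0.531. The most abundant factors, Myt1l and Neurod6, which are kept on in neurons, stood at -0.15 (SE 0.17) and -0.13 (SE 0.13), and the rarest, Eomes and Neurod4, at 0.09 (SE 0.40) and -0.0036 (SE 0.78) in the authors' deposited table. Whether these factors differed from the structural genes was not tested.

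**Figure D4:**
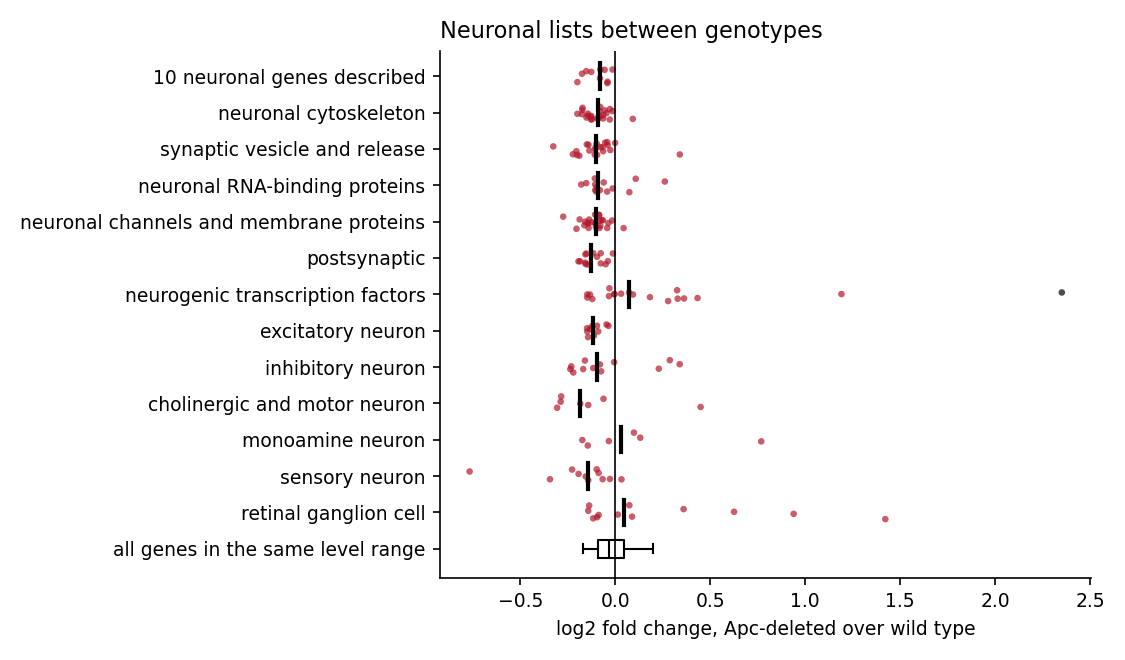
log2 fold change, Apc-deleted over wild type, of each gene in the neuronal lists (red points, black bar at the median) and, as a box with quartiles and whiskers at percentiles 5 and 95, of the 810 genes in the level range of the members, from the authors' deposited table. Neurog2 at 2.35, drawn in black, is the 1 gene of 166 past an adjusted p of 0.05, against 0.548% of all genes. The medians of the structural lists lie between -0.13 and -0.09.

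The SE of a fold change carries the only trace of how much libraries of the same genotype differed. It is 1 value per gene for both genotypes together and does not give the spread within either. The SEs of the members were between 0.680 and 1.503 times the median SE of the 200 genes nearest in mean normalized count, with a median of 1.02. Map2 at 0.680, the lowest ratio of all 19333 genes, Dcx at 0.798 and Elavl3 at 0.862 lay at the narrow end, and Snap25 at 1.503, Tubb3 at 1.32 and Syt1 at 1.21 at the wide end. For the 16 OPC genes that ratio had a median of 1.42 and a range from 0.703, for Ptprz1, to 2.13, for Olig2, and Pdgfra stood at 1.68. The difference between these medians was not tested. In the OPC list 5 genes passed in the authors' deposited table, Matn4 at 1.01 higher, and Gpr17 at -1.16, Nkx2-2 at -1.44, Tnr at -0.57 and Neu4 at -1.01 lower in Apc-deleted cultures on the log2 scale. Of 17 oligodendrocyte genes 3 passed as lower in the authors' deposited table, Bcas1, Enpp6 and Myrf. Of 16 microglia and macrophage genes 2 passed as higher, Lyz2 at 4.33 (SE 0.96) and Cd68 at 1.54 (SE 0.36). The SE of Lyz2 was 7.12 times, and that of Cd68 1.98 times, the median of the genes nearest in level. The part of these shifts in the values of the neuronal genes was not tested.

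**Figure D5:**
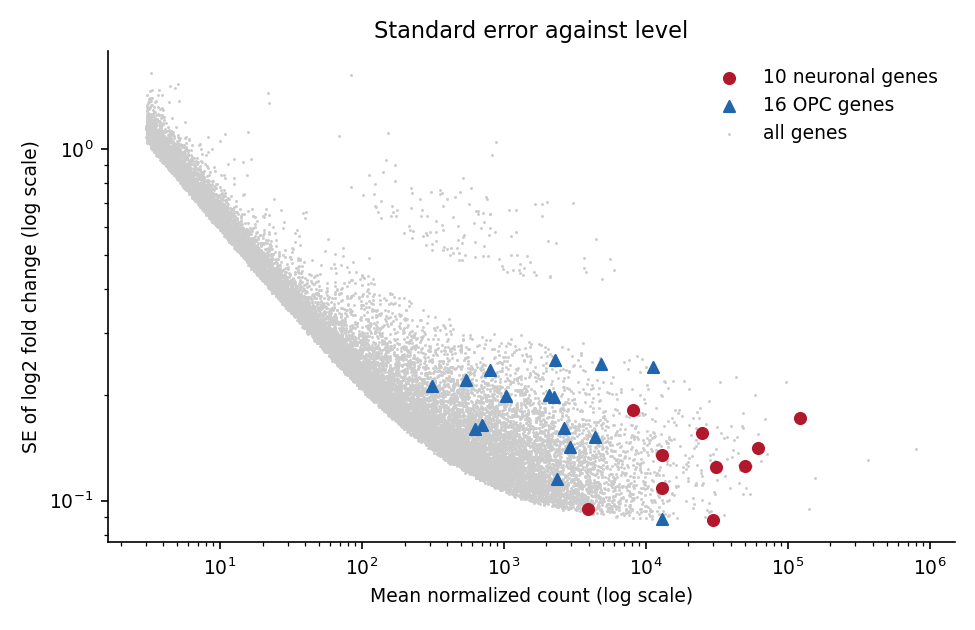
SE of the log2 fold change against the mean normalized count (both log axes) for all genes (grey), the 10 neuronal genes (red circles) and the 16 OPC genes (blue triangles) of the authors' deposited table. The neuronal genes spread across the grey band at their level, with ratios to their neighbours from 0.680 for Map2 to 1.503 for Snap25, and the OPC genes from 0.703 for Ptprz1 to 2.13 for Olig2.

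The cells sorted from EAE spinal cord show the same genes in libraries sorted for immune cells. The sort for the 3 macrophage libraries was CD11b+Gr-1+NK1.1+, and the transcript of CD11b, Itgam, was at 11.95 to 12.63 TPM (transcripts per 1000000), that of the Gr-1 antigen, Ly6g, at 727 to 754 TPM, and that of NK1.1, Klrb1c, at 0.05 to 0.10 TPM. The library labelled Th1 was sorted as CD4+, yet Cd4, Cd3d, Cd3e and Cd3g had no value there, while the T cell kinase gene Lck had 66.3 TPM and the myeloid gene Lyz2 11006 TPM. Of 22064 listed genes 6550 had a value in the library labelled Th1, against 14527 in each macrophage library. The macrophage values include zeros, as for Nefl, and the depths differ, so these counts do not compare detection between libraries. In the library labelled Th1, with 3051730 estimated reads, Tubb3 had 99.1 reads (19.2 TPM) and Syt1 had 24 reads (1.83 TPM). The other 8 members had no value there, where 3 reads are worth 0.983 CPM (reads per 1000000). In the 3 macrophage libraries, with 23174908 to 23564215 estimated reads, Tubb3 had 3.98, 2 and 1.93 reads, a mean of 0.040 ± 0.017 TPM (SD, n = 3). Stmn2 had 5, 7 and 4 reads, Snap25 5, 3 and 1, Map2 3, 6.08 and 4.92, Syt1 0, 1 and 1, and Nefl 0, 0 and 1. The remaining members, Nefm, Rbfox3, Elavl3 and Dcx, had no value in any macrophage library, where 3 reads are worth 0.127 to 0.129 CPM. The 10 genes summed to 21.1 TPM in the library labelled Th1 and to 0.153 ± 0.040 TPM in the macrophage libraries (SD, n = 3). Among the 98 neuronal genes of structure and function, 7 reached 1 TPM in the library labelled Th1 and 8 in each macrophage library, with Stmn1, a tubulin-binding protein also found in dividing cells, highest at 932 TPM and at 142.54 to 146.43 TPM. TPM and the normalized counts of the OPC table are on different scales and were not compared.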

How the data were processed

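RNA was extracted with Trizol and sequenced as 150-base read pairs on the Illumina HiSeq platform, per the labels' protocols, and the genome build was GRCm38, per the submitters' processing notes. For aligner and counting tool no name or setting is given in the sources used here. Per the file headers, the OPC table deposited by the authors holds the mean normalized count (a signal), a log2 fold change, its SE, a statistic (a score equal to the log2 fold change over the SE, as checked) and p-values. The adjusted p-values deposited by the authors lay up to 0.0186 above a Benjamini-Hochberg adjustment over the genes of the file, with the same 106 calls. Each immune file deposited by the authors holds TPM and estimated counts, per the file headers, used as given with blanks taken as 0. 8 FPKM and normalized count columns were not used. The codes of the macrophage columns appear in no label, so a column is known by its group alone.

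No own test was run, since the OPC table has no value per library. The p-values are the authors' own. Levels per kb divide the mean by the union of exons in GENCODE M21, where 99.8% of gene identifiers matched without their version and 85.5% with it, so the annotation behind the table differs in part. Intervals are normal at 95%. Floors of 3 reads cover counting error only. The adjustment and the ratio of SEs were tested on simulated data. The members and lists were chosen with earlier results of these data known. Named genes are the members, each list gene past the threshold, the 3 highest and 3 lowest of each of 12 neuronal lists and the 3 highest of lists of other cell types, by mean per kb. Some genes that this rule names are not reported here. Other genes, among them family members of the 10, Syn2, Gad1, Atoh7 and genes transcribed in most cells, were named after their values were seen. Markers of the sorted libraries were chosen to match the sort. A search for genes with a like pattern needs values per library and was not run. Alternatives were other sets of genes for the adjustment, another threshold, centring, transcript length, and leaving out a macrophage library. Software was Python 3.11.15 with matplotlib 3.10.9, scipy 1.17.1, pandas 2.3.3 and numpy 2.4.6.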

Additional observations from a re-analysis of the deposited data

Results flagged for a closer look

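Both values lie outside the comparison of OPC cultures. Tubb3 had 99.1 reads in the library labelled Th1, against 1.93 to 3.98 reads in the macrophage libraries, and Syt1 had 24 reads there, against 0 to 1 in the macrophage libraries. They stood out because they exceed the 3-read floor in a library whose other 8 members have no value. With 1 library labelled Th1 the difference has no replicate check.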

How the results depend on the processing

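No member passed when p-values were adjusted over genes with a mean of at least 10 or at least 100 normalized counts, or at an adjusted p under 0.1. Over the 166 measured genes of the 12 neuronal lists 1 passed, against 0.548% of all genes. With a minimum mean of 100 the count was 0, since that filter removes Neurog2. The median member was 11.7 times Pdgfra per kb, 15.1 times by the longest transcript, 12.2 times with no length and 9.23 times over the 8 members with little exon overlap. Against Olig2 these values were 2.89, 5.48, 11.9 and 2.28. All 10 members stayed above Pdgfra under each length, and 9 or 10 above Olig2. The median log2 fold change was -0.08 as deposited and after centring on genes with a mean of at least 100, and -0.05 relative to genes in the same level range, a centring chosen after seeing the data, as were the choice of members with little overlap and the ratio of SEs over 50 neighbours (median 1.01). No macrophage library was decisive, with a summed level between 0.135 and 0.175 TPM when each was left out and no member at 1 TPM or 1 CPM. No paired analysis was possible because the OPC table holds no value per library, and leaving out an OPC culture was not possible for the same reason. Depth of the OPC libraries is unknown, and raw files of most of them were replaced later, per the design text, so which reads lie behind the table is not known.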
